A study of Sus scrofa with 599 samples.

Results

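The cytosolic ribosome of the pig is built from ribosomal RNA and a set of ribosomal proteins, and the genes described here are those that code for these proteins. They were chosen by name. A protein-coding gene (PCG) of the pig expression table was taken when its symbol was RPL or RPS with a number and at most one of the letters A, X, Y or L, or was RPLP0, RPLP1, RPLP2 or RPSA, and the RPS6K kinases were left out. The rule found 48 genes among the 21280 rows of the table, of which 14821 carried a symbol. RefSeq lists 79 symbols of this form for the pig, and 31 of them were not paired with a row here, so the set is a part of the family. It held 23 proteins of the small subunit, 18 of the large subunit, 3 proteins of the P stalk (RPLP0, RPLP1 and RPLP2), the ubiquitin fusion RPS27A and 3 paralogs (RPL3L, RPL10L and RPS27L). Of the 48 genes, 47 passed 0.5 TPM in at least 80% of the libraries of at least 1 group, and RPL3L did not.

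All animals were female adults of the Bama miniature pig breed, in 3 diet groups. NC pigs ate a normal diet, WG (weight gain) pigs were fattened on high-fat feed over 22 weeks, and WL (weight loss) pigs had been fattened in the same way before 12 weeks on a small fraction of the normal daily calories. From each pig came whole pieces of greater omentum (GOM), mesenteric (MAD) and retroperitoneal (RAD) adipose tissue, which are visceral ATs (VATs), and of the upper layer of backfat (ULB), a subcutaneous AT (SAT). The 236 RNA libraries were total RNA with ribosomal RNA removed and comprised 9 NC, 45 WG and 10 WL libraries of GOM, 12, 36 and 10 of MAD, 12, 39 and 10 of RAD, and 5, 38 and 10 of ULB.

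Each ribosome needs one copy of almost every ribosomal protein, and cells keep the supply of these proteins in balance with that of ribosomal RNA. Proteins of the small subunit help to read the mRNA, proteins of the large subunit surround the site where peptide bonds form, and the acidic P stalk recruits the elongation factors. Mammalian ribosomal protein mRNAs start with a cytosine followed by a run of pyrimidines, the 5′ terminal oligopyrimidine (TOP) motif, through which the nutrient-sensing kinase mTORC1 and the protein LARP1 control their translation. That control acts on translation, which RNA levels do not show. RPLP0 and RPS18 are common reference genes for quantitative PCR.

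The sequence around the start of a gene can carry the DNA form of that motif. The promoters of 6 members on which the results below turn are therefore shown, from 150 bases before to 20 bases from the RefSeq gene start in Sscrofa11.1. Capitals mark pyrimidine runs of 8 or more bases that reach the last 20 bases before the start or beyond, and any CTTTCC, any CCGGAAG and any AAGATGGC on either strand. These are, in order, RPLP0 (chr14:40223924-40224093, minus strand), RPS20 (chr4:75762059-75762228, plus), RPS18 (chr7:29638706-29638875, plus), RPL37 (chr16:25803507-25803676, minus), RPSA (chr13:24072401-24072570, plus) and RPL28 (chr6:59556436-59556605, plus).
RPLP0: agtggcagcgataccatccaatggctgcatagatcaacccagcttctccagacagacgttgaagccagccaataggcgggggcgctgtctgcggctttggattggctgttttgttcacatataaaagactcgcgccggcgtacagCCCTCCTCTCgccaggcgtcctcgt
RPS20: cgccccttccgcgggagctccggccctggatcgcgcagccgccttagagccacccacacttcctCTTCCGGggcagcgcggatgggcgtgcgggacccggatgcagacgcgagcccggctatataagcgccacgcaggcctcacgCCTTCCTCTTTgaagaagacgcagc
RPS18: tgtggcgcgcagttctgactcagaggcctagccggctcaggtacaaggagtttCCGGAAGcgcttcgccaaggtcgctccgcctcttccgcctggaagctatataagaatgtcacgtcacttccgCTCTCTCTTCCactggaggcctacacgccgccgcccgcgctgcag
RPL37: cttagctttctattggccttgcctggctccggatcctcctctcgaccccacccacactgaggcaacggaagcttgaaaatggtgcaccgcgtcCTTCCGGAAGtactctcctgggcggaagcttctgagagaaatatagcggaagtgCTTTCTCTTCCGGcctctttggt
RPSA: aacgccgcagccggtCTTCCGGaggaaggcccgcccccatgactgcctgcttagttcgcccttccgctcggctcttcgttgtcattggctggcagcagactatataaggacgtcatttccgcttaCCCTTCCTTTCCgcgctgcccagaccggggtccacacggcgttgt
RPL28: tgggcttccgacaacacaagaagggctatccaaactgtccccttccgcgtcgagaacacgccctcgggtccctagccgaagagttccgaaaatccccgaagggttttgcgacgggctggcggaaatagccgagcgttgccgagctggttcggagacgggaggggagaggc

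A pyrimidine run near the start was present in 27 of the 48 members, which is 56.25%, against 18.99% of the windows of 13468 other genes. RPLP0, RPS20, RPS18, RPL37 and RPSA have such a run and the RPL28 window has none. The letters CCGGAAG, which hold the core bound by ETS family factors, were in 12 members (25%) against 8.895% of the other windows, CTTTCC in 8 (16.67% against 14.37%), AAGATGGC, the core of the YY1 motif, in 1 (2.083% against 1.433%), and TATAAA in 5 (10.42% against 5.012%). GGGCGG was in 22 members (45.83%) and in 50.95% of the other windows. All motifs were searched on both strands, and CTTTCC can lie inside a pyrimidine run. The annotated start was a C in 21 members (43.8% against 28.6%). A C start with a run directly after it was not counted as a motif of its own. A RefSeq start is an annotation and can lie some bases from the start used in fat, and a match of letters is a description of the window.

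Base quality, mitochondrial RNA and lymphocyte RNA differed between libraries and are given before the results they touch. Library totals ran from 3.34 M to 22.94 M estimated counts (M, 1e6 counts) with a median of 16.79 M. In the set of low base quality that the study names were 27 libraries. Of these, 7 were among the 9 NC GOM libraries, 6 among 12 NC RAD, 2 among 12 NC MAD and 2 among 5 NC ULB. The others were WG and WL libraries. The 13 mitochondria-encoded genes took between 0.65% and 3.59% of PCG TPM in the 40 WL libraries, whereas the WG libraries fell into a lower and a higher range, with 27 of 45 in GOM, 20 of 39 in RAD, 18 of 38 in ULB and 14 of 36 in MAD below 5%. NC had 0 of 9, 3 of 12, 2 of 5 and 3 of 12 libraries below 5% in the same order of ATs. Of 45 WG replicate numbers with libraries of 2 or more ATs, 36 had them all on 1 side of 5%. In 6 libraries the summed TPM of the T and NK cell markers or of the B and plasma cell markers reached 1000 or more, and these are called lymphocyte-rich below by that sum alone. Of these, 3 of the 10 WL MAD libraries (replicates 1, 6 and 7) had B and plasma cell sums of 2398, 3418 and 7858 TPM, WG MAD replicate 31 had 4054 TPM and NC GOM replicate 6 had 2361 TPM. Among the B and plasma cell markers JCHAIN reached the highest group mean, 1300 TPM, and MS4A1 was next at 42.8 TPM. A high B and plasma cell sum thus follows JCHAIN above all. CD79A stood at 22.8 TPM in NC GOM replicate 6 and at 47.8 to 93.1 TPM in these MAD libraries. The sixth, WG GOM replicate 35, was the shallowest library and did not carry the markers as a set. Its T and NK sum of 4527 TPM came almost wholly from CD247 at 4501 TPM with CD3D, CD3E, CD2 and LCK at 0, and its ribosomal protein genes held 1.99% of PCG TPM with RPS20 at 2.13 TPM. The summed adipocyte markers were present in every library (4246 to 37416 TPM). In whole tissue, fewer cells of a type and less RNA per cell cannot be told apart.

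The 48 genes together held a large part of the protein-coding transcripts. Their share of PCG TPM was 9.40% ± 2.03 (SD, n = 9) in NC GOM, 9.35% ± 0.99 (n = 5) in NC ULB, 8.74% ± 1.81 (n = 12) in NC RAD and 8.13% ± 2.28 (n = 12) in NC MAD. In WG it was 8.99% ± 2.48 (n = 45) in GOM, 8.11% ± 1.79 (n = 39) in RAD, 7.98% ± 2.23 (n = 38) in ULB and 7.98% ± 2.14 (n = 36) in MAD. In WL it was highest with 11.72% ± 2.44 in MAD, then 10.92% ± 1.32 in GOM, 9.06% ± 0.84 in RAD and 8.25% ± 0.87 in ULB (n = 10 each). The WL MAD range of 9.44% to 16.16% was stretched upwards by the 3 libraries rich in B and plasma cell markers, which stood at 12.85%, 15.87% and 16.16%, and the other 7 lay between 9.44% and 11.17%. Within WG the share was lower where the mitochondria-encoded share was higher, and both are parts of the same total. It was 10.40% in GOM, 10.06% in ULB, 9.84% in MAD and 9.39% in RAD below the 5% limit, and 6.88%, 6.11%, 6.79% and 6.76% above it. With the mitochondria-encoded genes left out of the total, the corresponding values were 10.64%, 10.33%, 10.10% and 9.63% below the limit and 8.47%, 7.53%, 8.23% and 7.97% above it, a smaller gap in each AT. With that total the order of NC and WL also turned in GOM (median 11.73% in NC and 11.36% in WL) and in RAD (10.58% and 9.36%), while the medians were 10.21% and 10.82% in MAD and 10.48% and 8.54% in ULB. Whether base quality, mitochondrial RNA or lymphocyte RNA had a part in the differences between diets was not tested, and the comparisons below are also given without these libraries.

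**Figure D1:**
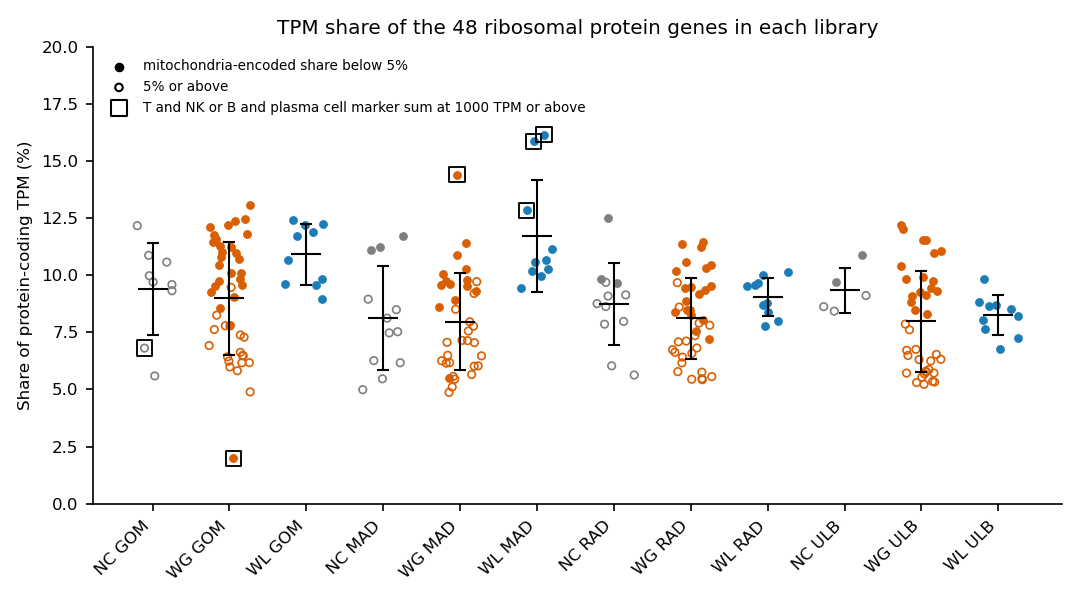
Share of protein-coding TPM (%) held by the 48 ribosomal protein genes in each of the 236 libraries, by diet and AT, with bars for the group mean ± SD. Filled points have a mitochondria-encoded share below 5% and open points a share of 5% or above, and squares surround the 6 libraries with a lymphocyte marker sum of 1000 TPM or more, of which the lowest WG GOM point owes it to CD247 and 3 are the highest WL MAD points at 12.85%, 15.87% and 16.16%. Most open WG points lie below the filled ones.

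Levels between members differed widely although each ribosome holds similar numbers of the proteins. On the TPM scale, which divides by transcript length, RPLP1 of the P stalk was the highest with a mean over the 12 groups of 6683 TPM, followed by RPS28 at 4447, its stalk partner RPLP2 at 4386, RPS24 at 3860 and RPS21 at 3319. RPLP1 ranged from 5091 to 13607 TPM with a median of 7672 in WL MAD and from 2322 to 5589 with a median of 4036 in NC GOM. Among genes of the core ribosome, RPL28 was the lowest at 225 TPM and RPS27A, which is made as a fusion with ubiquitin, followed at 301 TPM. RPLP0, the scaffold of the stalk to which RPLP1 and RPLP2 bind as dimers, stayed well below its partners, with group means of 769 to 2506 TPM. The group means of RPS28 (3508 to 7280 TPM), RPLP2 (3252 to 5444) and RPS24 (3152 to 4958) overlapped, so the order of these 3 differed between groups.

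The paralogs were low. RPL3L, known from muscle ribosomes in which it replaces RPL3, had a mean of 0.32 TPM against group means of 564 to 1514 TPM for RPL3. RPL10L, a retrogene copy of the X-linked RPL10 that is used in spermatogenesis, had a mean of 0.76 TPM, and its group medians were at or below 1.45 TPM while RPL10 had group means of 1412 to 3294 TPM. RPS27L, a p53 target, was expressed at 74.3 TPM, with group means from 51.3 TPM in NC GOM to 85.0 TPM in WL ULB. RPS4X, the X-linked small subunit protein, had group means of 1524 to 2225 TPM. Near-identical copies and processed pseudogenes of ribosomal protein genes exist in mammalian genomes, and estimated counts can be split between such copies, so the level of any member is uncertain to that extent.

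**Figure D2:**
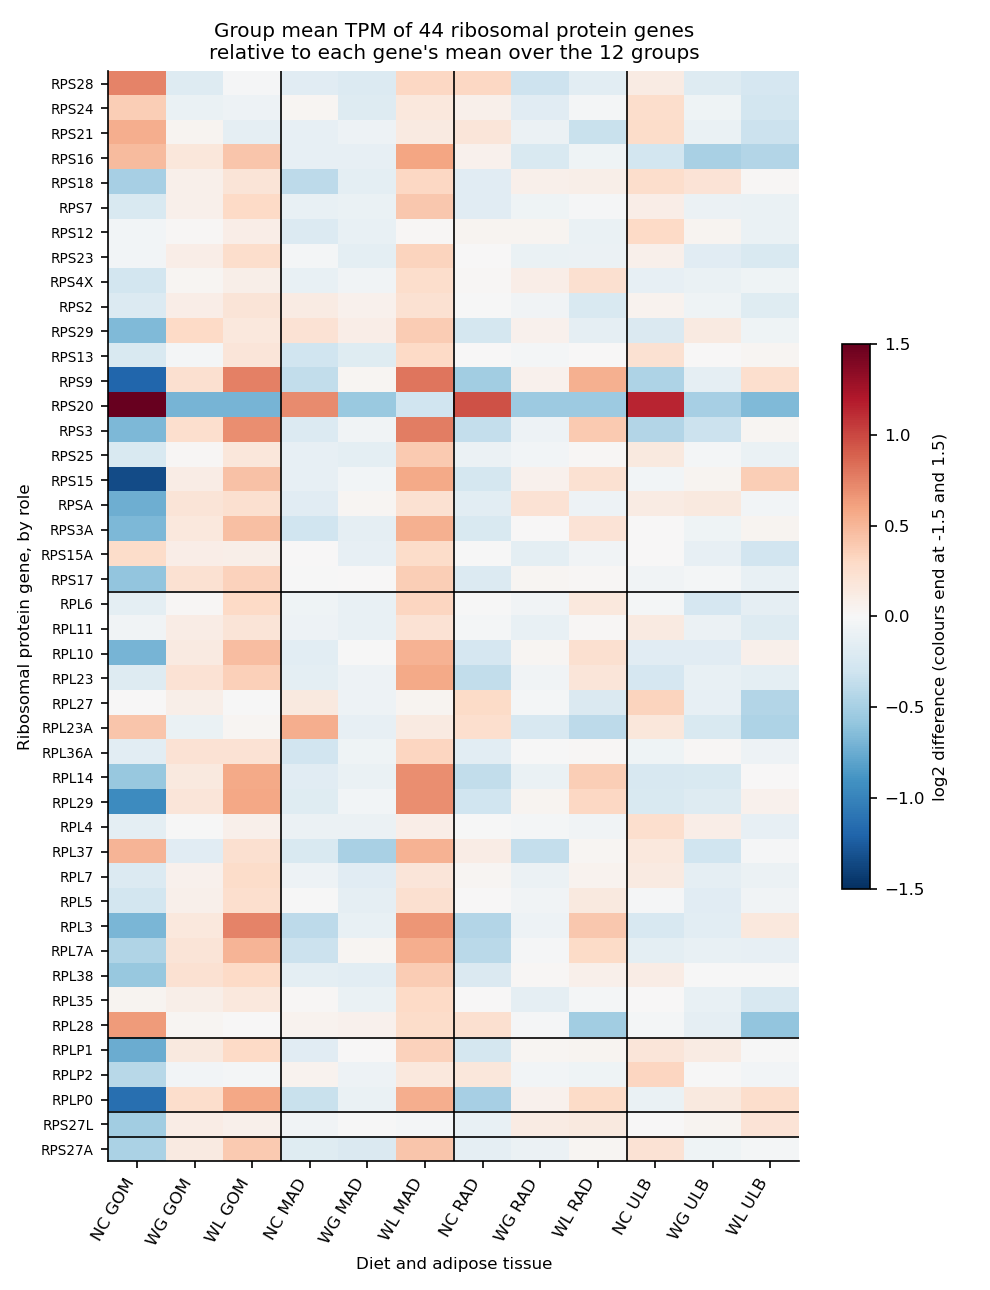
Group mean TPM of 44 ribosomal protein genes in the 12 diet and AT groups, as the log2 difference from each gene's mean over the groups, with the genes in rows ordered by role and the colours ending at -1.5 and 1.5. RPS20 stands out with its highest values in the 4 NC groups, most rows are highest in WL MAD, and NC GOM is the lowest group more often than any other.

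The members varied together. Over the 236 libraries, centred within the groups, the median correlation between 2 detected members was 0.69, against 0.087 between 2 detected PCGs. These correlations share the library and its depth and are a description. RPL28 and RPS20 stood apart, with correlations of -0.58 and -0.04 to the mean of the other members. The same genes also stood apart against the log2 mitochondria-encoded share, to which 37 of 46 members had a correlation below -0.3 and 2 had one above 0.3. The correlation was -0.90 for RPLP0, -0.87 for RPS15, -0.84 for RPS3, -0.84 for RPL29 and -0.83 for RPS9, and 0.79 for RPL28 and 0.51 for RPS20. The ratio of summed small subunit to summed large subunit TPM followed the same split, with a mean of 1.58 in the 27 WG GOM libraries below 5% and 1.83 in the 18 above, 1.60 and 1.80 in WG MAD, 1.64 and 1.79 in WG RAD, and 1.68 and 1.85 in WG ULB. In WL it was 1.56 in GOM, 1.57 in RAD, 1.64 in MAD and 1.65 in ULB.

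The first question was how a high-fat diet changed these genes. In GOM, 8 of 46 members tested rose and 9 fell from NC to WG (edgeR's quasi-likelihood test, Benjamini-Hochberg adjusted p below 0.05 over all genes tested, as in all counts below), where 18.7% of all genes tested rose and 19.9% fell. In MAD 0 of 46 rose and 2 fell (9.14% and 9.45% of genes), in RAD 0 of 46 rose and 12 fell (16.7% and 17.6%), and in ULB 0 of 47 rose and 1 fell (0.618% and 2.24%). The median log2 fold change of the members was 0.07 in GOM, -0.26 in ULB, -0.18 in RAD and -0.17 in MAD. Read against all genes, the calls were near the background in GOM and ULB, and the falls were fewer than it in MAD and more in RAD.

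RPS20, a protein of the small subunit head, carried the largest fall in each AT. In NC GOM its lowest, median and highest values were 1171, 3039 and 4239 TPM, and in WG GOM 2.13, 496 and 1425 TPM. The 2.13 TPM was the value of WG GOM replicate 35. The ranges overlapped only between 1171 and 1425 TPM, and the log2 fold change was -2.72 ± 0.24 (SE), adjusted p = 1.1e-13 by edgeR's quasi-likelihood test. In MAD RPS20 had 338, 1537 and 3273 TPM in NC and 214, 565 and 1970 TPM in WG, a change of -1.57 ± 0.27, and in RAD 354, 1745 and 3799 TPM against 130, 603 and 1313 TPM, a change of -1.85 ± 0.25. The groups overlapped in both ATs. The 5 NC ULB libraries had RPS20 at 612, 4753, 343, 3172 and 1069 TPM, and WG ULB had 213, 615 and 1381 TPM as lowest, median and highest. The 2 NC ULB libraries of low base quality gave the values of 4753 and 3172 TPM, and the change was -1.86 ± 0.31. Base quality moved with RPS20 in NC as a whole, since the mean was 2656 to 3963 TPM over the low-quality and 675 to 1553 TPM over the high-quality libraries of the 4 ATs. With high-quality libraries only, RPS20 was called in MAD (log2 fold change -1.10) and not in GOM (-1.64, with 2 NC libraries), RAD (-0.57) or ULB (-0.11). Among libraries with a mitochondria-encoded share below 5% it was 0.20 in RAD, 0.10 in ULB and -0.11 in MAD, none called by edgeR's quasi-likelihood test. These fits held 3, 2 and 3 NC libraries.

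Beside RPS20, the falls in GOM were led by RPS28, a small protein at the mRNA exit, with -1.25 ± 0.21, followed by RPL37 with -0.94 and RPL28 with -0.93. RPS28 had 2581, 7365 and 10199 TPM as lowest, median and highest in NC GOM and 39.1, 3767 and 6983 TPM in WG GOM. RPS28 was also the next largest fall in RAD at -0.95 ± 0.17, but stood there at 0.02 with high-quality libraries only and at 0.05 below 5% mitochondria-encoded share. RPL23A, a large subunit protein at the peptide exit, fell in MAD by 0.86 on the log2 scale. The rises in GOM were led by RPS15 with 1.23 ± 0.35, RPS9 with 1.18 ± 0.35 and RPLP0 with 1.17 ± 0.30. RPS15 had 268, 284 and 442 TPM in NC GOM and 170, 930 and 1811 TPM in WG GOM. RPLP0 had 598, 763 and 897 TPM in NC GOM and 675, 2259 and 6288 TPM in WG GOM. The value of 6288 TPM was that of WG GOM replicate 35, the shallowest library. For both genes the NC libraries were tightly grouped and the WG libraries spread from the NC range to well above it. With high-quality libraries only, 0 of the GOM members and 2 of the RAD members were called, and with the base quality set as a term in the fit 0 rose and 2 fell in GOM and 0 rose and 2 fell in RAD. With the log2 mitochondria-encoded share as a term, 0 rose and 40 fell in RAD (20.4% of genes fell), 0 and 25 in MAD (9.59%), 0 and 14 in GOM (10.6%) and 0 and 14 in ULB (5.40%). In that fit RPS15 and RPS9 in GOM turned to -0.18 and -0.009 and were not called. Among libraries below 5%, 0 members were called in MAD, RAD and ULB, where 3, 3 and 2 NC libraries remained. In MAD 0 of 10 macrophage markers rose there, against 10 of 10 over all libraries, so the 0 is not read as no change. On log2(TPM + 1) values with limma, 11 rose and 4 fell in GOM and 6 rose and 4 fell in RAD, where the median of all genes was 0.23 in both ATs. Library size or RLE scaling of the counts gave 7 rises with 9 or 10 falls in GOM and 0 rises with 11 or 16 falls in RAD. The high-quality, base-quality, limma, library-size and RLE counts carry no share of all genes and are not read against it.

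**Figure D3:**
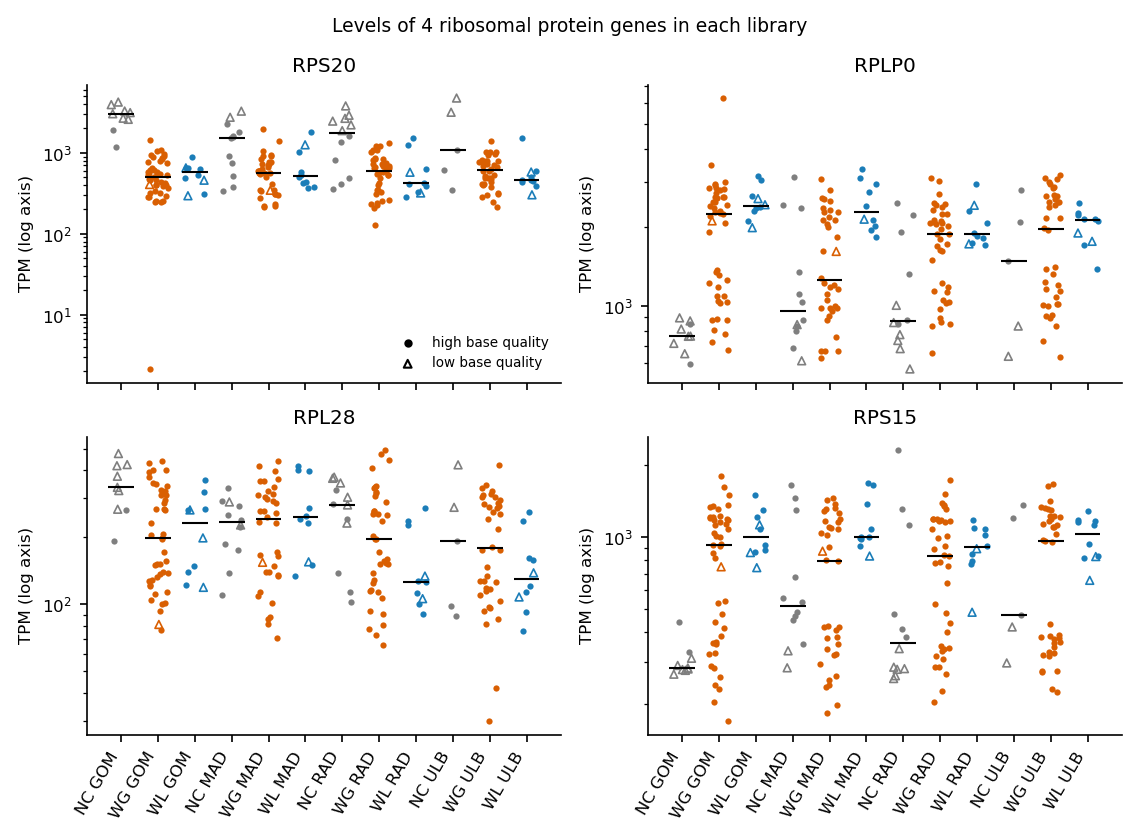
TPM (log axis) of RPS20, RPLP0, RPL28 and RPS15 in each library, by diet and AT, with circles for libraries of high and open triangles for libraries of low base quality. RPS20 is highest in the triangles of NC, where the means of low-quality libraries are 2656 to 3963 TPM, and the WG points of RPLP0 and RPS15 spread from the NC GOM range to the WL range.

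The second comparison asked what weight loss did. From WG to WL, 20 of 46 members rose and 0 fell in MAD, where 15.6% of genes rose and 15.7% fell. In GOM 0 of 46 members were called (4.20% of genes rose and 4.30% fell), in RAD 0 of 46 (6.78% and 6.31%) and in ULB 0 rose and 2 fell (8.52% and 8.70%). At an unadjusted p below 0.05 there were 1 member in GOM and 4 in RAD, and DESeq2 called 0 in both. In MAD 45 of the 46 members were higher in WL, with a median log2 fold change of 0.38, and all 18 large subunit and all 23 small subunit proteins were among them, 7 and 11 of which passed the test beside RPLP0 of the stalk and RPS27A. In ULB 0 of 3 stalk, 5 of 18 large subunit and 4 of 23 small subunit proteins were higher in WL, with medians of -0.15, -0.15 and -0.20.

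RPL37, a small zinc-binding protein of the large subunit, rose most in MAD. Its lowest, median and highest values were 324, 698 and 2238 TPM in WG MAD and 1240, 1601 and 2568 TPM in WL MAD, a log2 fold change of 0.98 ± 0.25 (adjusted p = 0.0026, edgeR's quasi-likelihood test). RPS3, which sits at the mRNA entry, had 341, 804 and 2034 TPM in WG and 1098, 1629 and 2020 TPM in WL, a change of 0.79 ± 0.23. RPL3, at the peptidyl transferase centre, had 425, 796 and 1428 TPM in WG and 1018, 1421 and 1836 TPM in WL, a change of 0.76 ± 0.16. All WL libraries exceeded the WG median for these 3 genes, and the groups overlapped for each of the 46 members. RPS16 (0.71 ± 0.19), RPLP0 (0.63 ± 0.21) and RPS27A (0.62 ± 0.21) also rose, whereas RPS18 (0.44 ± 0.20) and RPL4 (0.15 ± 0.11) did not pass the test.

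The rise in MAD moved with lymphocyte markers. From WG MAD to WL MAD 10 of 10 B and plasma cell markers rose (median log2 fold change 2.49), 6 of 9 T and NK cell markers rose and 0 fell (2.29), and 5 of 10 adipocyte markers fell and 0 rose. Without the 3 WL libraries and the 1 WG library with marker sums of 1000 TPM or more, 3 of 46 members rose, where 4.55% of genes rose. These were RPL37 (0.82 ± 0.27), RPL14 (0.65 ± 0.21) and RPL3 (0.65 ± 0.18), 39 of the 46 members were higher in WL and their median was 0.27. RPS3 stood at 0.68 ± 0.26 and RPS16 at 0.35 ± 0.17 without being called. Among libraries with a mitochondria-encoded share below 5%, with the lymphocyte-rich ones kept, 3 of 46 rose and 0 fell where 9.23% of genes rose, and they were other members: RPL28 (0.97 ± 0.25), RPS20 (0.85 ± 0.28) and RPS28 (0.66 ± 0.21). RPL28 had 70.6, 139 and 234 TPM in the 14 WG and 134, 247 and 421 TPM in the 10 WL libraries, with overlap. With both conditions 1 member was called, a count given without the share of all genes.

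In ULB the picture changed with the mitochondria-encoded share. Over all libraries RPL4, which lines the peptide exit tunnel, fell by 0.35 on the log2 scale, from 1034, 1391 and 1915 TPM as lowest, median and highest in WG to 1064, 1240 and 1386 TPM in WL. When only the 18 WG libraries below 5% were compared with the 10 WL libraries, 42 of 46 members fell and 0 rose, where 18.6% of all genes fell, and the median log2 fold change of the members was -0.55. RPS29 changed most, from 1751, 2582 and 4841 TPM in WG to 675, 1422 and 2839 TPM in WL (-1.02 ± 0.21, adjusted p = 0.00047, edgeR's quasi-likelihood test). RPS18 had 3402, 4376 and 6384 TPM in WG and 2313, 2900 and 3376 TPM in WL, with no overlap (-0.87 ± 0.13). RPL38 (-0.87 ± 0.15), RPSA (-0.78 ± 0.11), also known as the laminin receptor, and RPLP1 (-0.76 ± 0.15) followed. RPL27, RPS28, RPS20 and RPL28 were the members not called. In the same libraries 6 of 8 fibroblast and progenitor markers fell and 0 rose (median log2 fold change -0.70), 4 of 10 adipocyte markers rose and 1 fell (0.36) and 3 of 8 endothelial markers rose and 0 fell (0.27), and their part in the result was not tested. The same restriction gave 0 rises and 6 falls in RAD (8.36% of genes fell), led by RPS29 with -0.75 ± 0.23 and RPSA with -0.67 ± 0.13, and 0 rises and 1 fall in GOM (7.13% of genes fell), that of RPS27L with -0.49 ± 0.17. With the log2 mitochondria-encoded share as a term in the fit on all libraries, 41 fell in ULB (20.2% of genes), 27 in RAD (15.1%) and 6 in GOM (13.4%), with 1 rise in GOM, and 4 rose in MAD (14.7%). The restriction to libraries below 5% was chosen after the data had been seen, and WG libraries above and below it come largely from different replicate numbers.

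**Figure D4:**
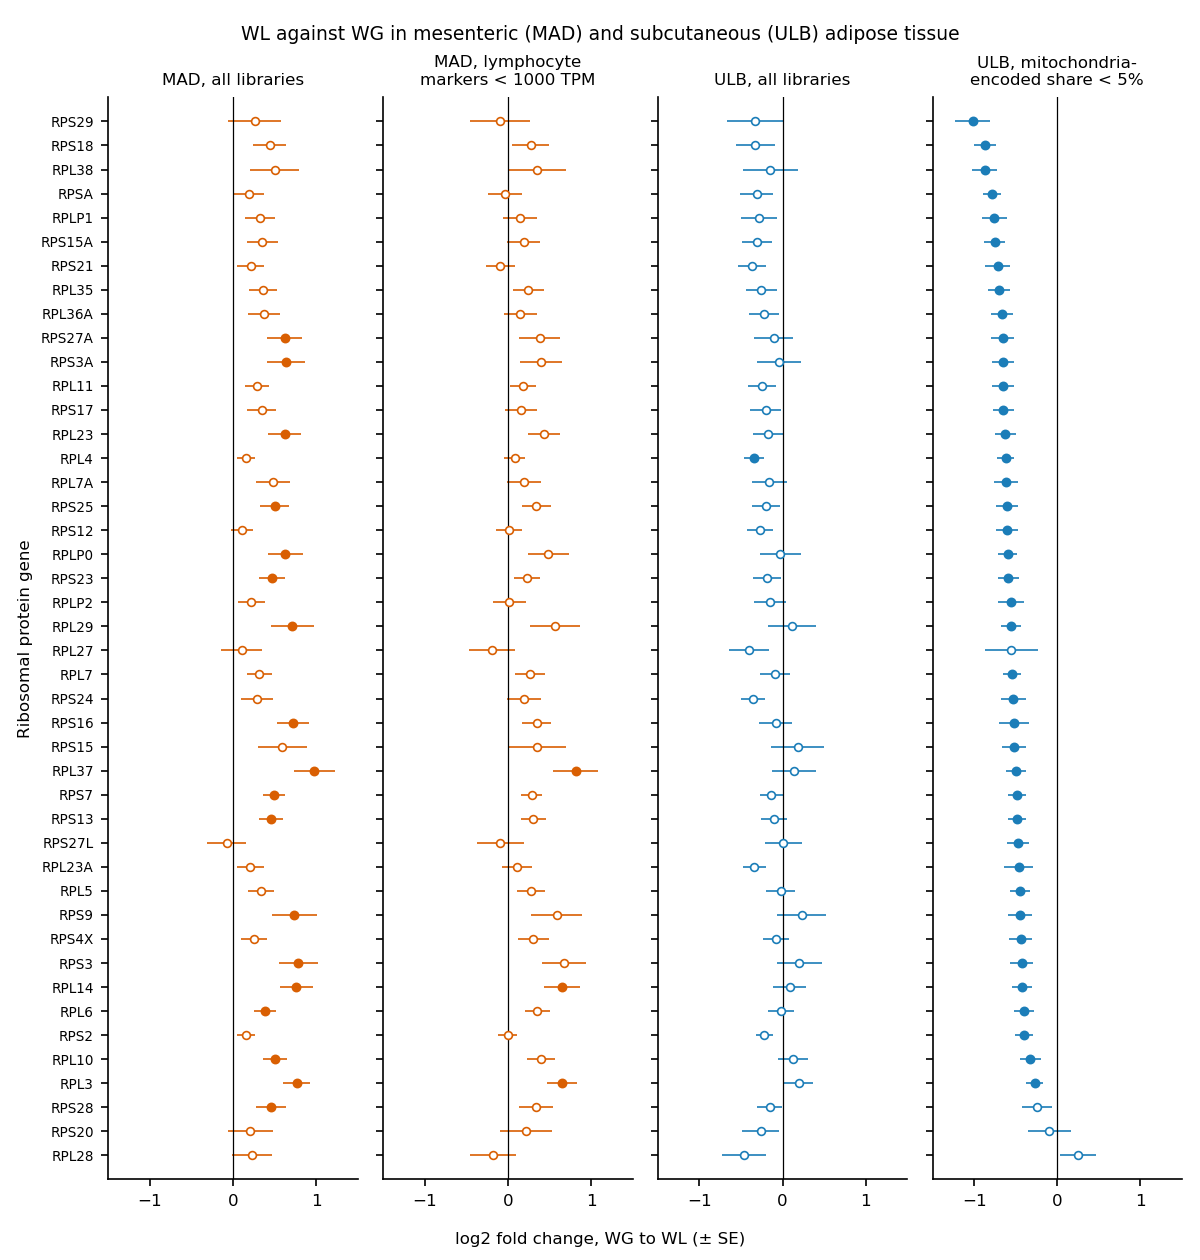
Log2 fold change from WG to WL (± SE) of 44 ribosomal protein genes in MAD over all libraries, in MAD without the libraries rich in lymphocyte markers, in ULB over all libraries, and in ULB with libraries whose mitochondria-encoded share was below 5%. Filled points passed the test, which were 18, 3, 1 and 40 of those drawn from left to right, and most points lie right of 0 in MAD and left of 0 in ULB.

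The third comparison set WL against pigs that had never been fattened. In GOM 16 of 46 members rose and 8 fell from NC to WL (25.2% and 27.5% of genes), in MAD 12 rose and 2 fell (22.2% and 23.8%), in RAD 2 rose and 14 fell (18.8% and 22.5%), and in ULB 0 of 47 rose and 13 fell (6.95% and 11.2%). These comparisons share the WL libraries with the previous ones and the NC libraries with the first, so they are not independent of them. In GOM the groups did not overlap for RPS9, RPS15, RPLP0 and RPS20, and the share of all genes without overlap was not counted. RPS9, an early-binding protein of the small subunit, had 296, 464 and 594 TPM in NC and 1290, 1841 and 2450 TPM in WL (1.64 ± 0.16). RPS15 had 268, 284 and 442 TPM against 746, 1005 and 1495 TPM (1.49 ± 0.14), and RPLP0 598, 763 and 897 TPM against 1994, 2422 and 3147 TPM (1.40 ± 0.12). RPS20 moved the other way, from 1171, 3039 and 4239 TPM to 295, 581 and 891 TPM (-2.69 ± 0.25), and RPS28 fell by 1.08 with overlap. With the log2 mitochondria-encoded share as a term, 0 members rose and 8 fell in GOM (4.47% of genes fell), RPS9 stood at 0.14 and RPS15 at 1.11 without being called, and RPS20 was called at -3.97. The share ran from 12.1% to 37.4% in NC GOM and from 0.65% to 3.14% in WL GOM, without overlap. The fit with the term therefore cannot part diet from the share in GOM, and its values there are not read further. No NC GOM library lay below 5%, so GOM could not be compared under that limit either. In MAD RPS9 (1.03 ± 0.27) and RPL3 (0.89 ± 0.18) led the rises, and RPS20 (-1.34 ± 0.42) and RPL23A (-0.64 ± 0.21) were the falls. In MAD 0 members rose and 2 fell with that term (8.72% of genes fell), where RPS9 stood at -0.22, RPL23A at 0.13 and RPS20 at 0.94, and 0 rose and 1 fell below 5% (7.04%), where RPS20 stood at 0.71. Without the lymphocyte-rich libraries, 1 member rose in MAD, RPL3 with 0.71 ± 0.20, where 13.9% of genes rose. In the same fit 3 members fell, a count given without the share of all genes.

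In RAD RPS9 (0.76 ± 0.27) and RPL3 (0.54 ± 0.17) were the 2 rises, and RPS20 (-1.90 ± 0.43) and RPL28 (-1.04 ± 0.28) led the falls. With the mitochondria-encoded share as a term these 4 turned to -0.54, -0.28, 0.78 and 0.69, and below 5% to -0.28, -0.12, 0.31 and 0.18, with none of them called by edgeR's quasi-likelihood test. With the term 0 members rose and 18 fell in RAD (8.19% of genes fell). RPL3 had 398, 535 and 1356 TPM in NC RAD and 1028, 1145 and 1490 TPM in WL RAD. In ULB RPS20 (-2.12 ± 0.48) and RPL27 (-0.99 ± 0.30) led the 13 falls. RPL27 had 2297, 1575, 1245, 1636 and 3051 TPM in the 5 NC libraries and 385, 1291 and 1738 TPM as lowest, median and highest in WL ULB, so that 2 NC libraries lay above all of WL. Without NC ULB replicate 9, 7 members fell. With high-quality libraries only, 17 rose and 2 fell in GOM, 11 and 2 in MAD, and 0 and 2 in RAD and also in ULB. Among libraries below 5% mitochondria-encoded share, 22 fell in RAD (8.52% of genes) and 16 in ULB (7.95%) and 0 rose in both. On log2(TPM + 1) values with limma, 28 rose and 5 fell in GOM, 12 and 3 in RAD, 1 and 2 in ULB and 21 and 0 in MAD. With library size alone 6 rose and 8 fell in RAD and 1 rose and 8 fell in ULB. The high-quality, limma, library-size and replicate 9 counts carry no share of all genes and are not read against it.

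Between ATs of NC pigs, RPS15 led. From GOM to MAD 3 of 46 members were higher and 3 lower (12.2% and 11.9% of genes), from GOM to RAD 3 were higher and 0 lower (15.1% of genes higher), and from GOM to ULB 6 of 47 were higher and 1 lower (16.2% and 13.5%). RPS15 rose by 1.14 ± 0.26 from GOM to MAD, by 1.10 ± 0.37 to RAD and by 1.24 ± 0.28 to ULB, where its 5 values were 1362, 298, 1204, 422 and 474 TPM against 268 to 442 TPM in NC GOM. Within groups RPS15 had a correlation of -0.87 with the log2 mitochondria-encoded share. In NC that share was below 5% in 0 of 9 GOM, 3 of 12 MAD, 3 of 12 RAD and 2 of 5 ULB libraries. Its part in the lead of RPS15 was not tested, and the calls with the share as a term are listed at the end. The same-numbered NC GOM and ULB libraries varied together, and with the replicate number as a block 0 members were called between these ATs. Leaving out 1 NC ULB library gave 3 to 17 called members, with 4 without replicate 2, 17 without replicate 5, 3 without replicate 7 and 13 without replicate 9. With high-quality libraries 0 members were called from GOM to MAD and from GOM to RAD. With library size alone, 1 was higher and 6 lower from GOM to MAD and 1 higher and 2 lower from GOM to RAD. The counts of these fits and of those without 1 NC ULB library carry no share of all genes. No member was called by edgeR's quasi-likelihood test between MAD and RAD (2.60% of genes), MAD and ULB (8.31%) or RAD and ULB (4.68%), where 1, 3 and 0 members had an unadjusted p below 0.05 and DESeq2 called 0, 1 and 0. Without NC ULB replicate 5, 1 member was called between MAD and ULB.

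Among WG pigs the count of members called between ATs changed with the fit. By edgeR's quasi-likelihood test 0 of 46 members were called between GOM and MAD (14.3% of genes), GOM and RAD (31.1%), MAD and RAD (16.6%) and RAD and ULB (34.7%), with 2, 1, 3 and 1 members at an unadjusted p below 0.05 and 0, 1, 0 and 0 called by DESeq2. From GOM to ULB 1 member was higher, RPL4, and 3 were lower (21.5% and 23.2% of genes), with RPS16 at -0.54 ± 0.13. RPS16 had 298, 3260 and 5717 TPM as lowest, median and highest in WG GOM and 1383, 1998 and 4090 TPM in WG ULB. From MAD to ULB 4 members were higher (20.2% of genes), and with library size alone 0 were higher and 2 lower, so the direction rested on the scaling. Same-numbered WG libraries of different ATs varied together. With the replicate number as a block, 4 members were higher (32.1% of genes) and 14 lower (32.5%) from GOM to ULB. Under the block 6 were lower from GOM to MAD (15.2%) and 4 were higher from MAD to RAD (16.1%). From MAD to ULB 4 were higher and 8 lower (54.9% of genes in either direction), and from RAD to ULB 10 were lower (27.1%). The block also gave 1 lower member from GOM to RAD and 1 higher from RAD to ULB. These last 2 counts carry no share of all genes. Without WG GOM replicate 35 and WG MAD replicate 31, 6 members were lower in MAD than in GOM, where 9.85% of genes were lower, with RPS16 at -0.38.

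After weight loss ULB stood below GOM and MAD. From GOM to ULB 22 of 46 members were lower and 0 higher (13.6% of genes lower), and from MAD to ULB 27 were lower and 0 higher (11.5%), with medians of -0.38 and -0.52. Counting direction alone, 1 of the 46 members was higher in ULB than in MAD. From GOM to RAD 3 were lower (10.1%) and from MAD to RAD 3 were lower (6.43%), and with the replicate number as a block the latter count was 17 (11.2%). Between GOM and MAD (6.69% of genes) and between RAD and ULB (5.43%) 0 members were called by edgeR's quasi-likelihood test, with 1 and 10 at an unadjusted p below 0.05 and 0 and 1 called by DESeq2. RPS16 led with -0.86 ± 0.17 from GOM to ULB and -1.10 ± 0.24 from MAD to ULB. Its lowest, median and highest values were 2572, 4042 and 8685 TPM in MAD, 3232, 4386 and 5528 TPM in GOM, 2449, 3111 and 3462 TPM in RAD and 1744, 2276 and 3468 TPM in ULB, and the groups overlapped. RPL3 had 1234, 1442 and 1852 TPM in GOM and 831, 1004 and 1171 TPM in ULB without overlap (-0.59 ± 0.12). In MAD RPS3 was 0.79 ± 0.15 above ULB on the log2 scale and RPL28 0.90 ± 0.30 above it.

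Lymphocyte markers moved with these differences as well. From WL MAD to WL ULB 10 of 10 B and plasma cell markers and 8 of 9 T and NK cell markers fell, and from WL GOM to WL ULB 4 of 9 and 8 of 10 fell and 0 rose. Without WL MAD replicates 1, 6 and 7, 9 of 46 members were lower in ULB than in MAD, where 6.69% of genes were lower, among them RPS16 (-0.62 ± 0.18), RPS3 (-0.60 ± 0.13) and RPL14 (-0.56 ± 0.13), and 0 were called between MAD and RAD. No library of WL GOM or WL ULB reached the marker limit, and the part of the lymphocyte markers in the 22 lower members from GOM to ULB was not tested. With high-quality libraries only, 2 were lower from GOM to ULB and 17 from MAD to ULB. These counts carry no share of all genes and are not read against it.

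Whether the change with diet differed between a VAT and ULB was tested as an interaction over all 12 groups. The change from WG to WL was higher in MAD than in ULB for 3 of 47 members, where 4.53% of genes were higher, among them RPS7, a protein of the small subunit that also binds MDM2, by 0.65 ± 0.21 and RPL4 by 0.52 ± 0.17. Among libraries below 5% mitochondria-encoded share 10 members were higher, where 2.61% of genes were higher, and with the replicate number as a block there were 13 (6.96% of genes). Without the lymphocyte-rich libraries neither RPS7 nor RPL4 was called by edgeR's quasi-likelihood test. The other 5 interactions called 0 members with edgeR's quasi-likelihood test, namely NC to WG in GOM (3.88% of genes in either direction), MAD (0.883%) and RAD (0.372%) against ULB, and WG to WL in GOM (0.995%) and RAD (0.153%) against ULB. At an unadjusted p below 0.05 these held 10, 0, 0, 4 and 0 members, and DESeq2 was not run on them. With the replicate number as a block, again by limma, 10 members were higher (14.2% of genes) and 3 lower (14.6%) for NC to WG in GOM against ULB. Block and tool changed together in that fit. WG to WL in GOM against ULB then had 1 higher member, where 286 of 15068 genes were higher. It also had 1 with the mitochondria-encoded share as a term (163 genes higher). Without the lymphocyte-rich libraries it had 1 as well (122 genes higher).

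The other genes of translation were counted in the same fits. From WG to WL in MAD, where 15.6% of all genes rose and 15.7% fell, 4 of 18 translation factors and other TOP mRNAs rose and 3 fell, 0 of 35 ribosome biogenesis genes rose and 4 fell, 1 of 26 genes that control translation rose and 10 fell, 2 of 11 genes of ribosome quality control rose and 3 fell, and 2 of 64 mitochondrial ribosomal proteins rose and 3 fell. In ULB, against 8.52% and 8.70% of all genes, the same comparison gave 0 rises and 4 falls of 18, 0 and 1 of 35, 1 and 3 of 26, 0 and 0 of 11 and 0 and 4 of 64. With libraries below 5% mitochondria-encoded share, in which 42 of 46 ribosomal protein genes and 18.6% of all genes fell in ULB, 0 of 18 TOP mRNAs rose and 12 fell, 0 of 64 mitochondrial ribosomal proteins rose and 39 fell, and 2 of 35 biogenesis genes rose and 7 fell. From NC to WG in GOM, where 18.7% of all genes rose and 19.9% fell, 17 of 64 mitochondrial ribosomal proteins rose and 4 fell while 1 of 18 TOP mRNAs rose and 4 fell.

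The start sites of the ribosomal protein genes lay almost wholly in active chromatin. The A-B index, measured by in situ Hi-C in 20 kb bins in 240 samples, is positive in the active A compartment. By the study's methods the Hi-C material was the adipocyte layer of the tissue, while the RNA was that of whole tissue. Of the 45 autosomal members placed, 92.8% to 94.2% were in A on average in each of the 12 groups, against 82.5% to 85.7% of 13002 other genes. RPL10L had the lowest mean index, -3.40, and was in A in 0 of the 240 samples. RPL38 had a mean index of -0.93 and was in A in 10 samples, and RPS23 had -0.70 and was in A in 23, although both are well expressed. RPS20 was next at 1.16, with group means of 0.38 to 0.54 in GOM and 1.18 to 1.60 in MAD, RAD and ULB. RPL29 had the largest change, from 3.57 ± 0.49 in NC RAD to 5.26 ± 0.44 in WL RAD.

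The index was called at few members between NC and WG or between WG and WL. A member was called at an adjusted p below 0.05 in limma and a difference above 0.75. From NC to WG 4 of 45 rose in MAD (10.4% of the other genes), 2 in RAD (9.49%), 0 in GOM (5.33%) and 2 in ULB (3.81%). In ULB 1 member fell, where 168 of 13002 other genes fell. From WG to WL 0 rose in RAD (4.75%), 0 in GOM (1.72%), 0 in MAD (1.08%) and 1, RPS21 with 0.79, in ULB (2.40%). RPS29 fell by 0.91 in RAD, where 43 of 13002 other genes fell. From NC to WL 13 rose in RAD (27.3%), 11 in MAD (22.5%), 6 in GOM (17.9%) and 2 in ULB (11.7%), and 0 fell. In the comparisons with 0 calls in either direction, 12, 14 and 8 members had an unadjusted p below 0.05 in NC to WG GOM, WG to WL GOM and WG to WL MAD. The median of all other genes rose too, by 0.37 in MAD and 0.41 in RAD from NC to WL, and after quantile normalization between samples the calls from NC to WL were 4 higher and 4 lower in RAD, 2 and 0 in MAD, 1 and 1 in GOM and 0 in ULB. From NC to WG in ULB, leaving out NC ULB replicate 5 gave 0 calls, replicate 9 or 12 gave 1 and replicate 2 or 7 gave 5, and leaving out replicate 9 or 12 gave 0 from NC to WL. Over all GOM libraries the RNA of RPS20 was lower after either diet than with the normal one. The change to WG was not called there with high-quality libraries only, and no NC GOM library had a mitochondria-encoded share below 5%. In the other ATs the fall of RPS20 changed with the libraries compared, as given above. The mean index at RPS20 in GOM stood at 0.54 ± 0.39 for NC, 0.45 ± 0.59 for WG and 0.38 ± 0.54 for WL. Index and RNA come from different cell mixtures here, the adipocyte layer and whole tissue.

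The members also sat closer to boundaries of topologically associating domains (TADs). On average 46.7% to 52.0% of the 45 members lay within 40 kb of a TAD boundary in the 12 groups, against 26.8% to 31.2% of the other genes, and the share of members was higher in each of the 240 samples. Members are fixed positions, so the samples repeat the same 45 places. RPL27 and RPS28 were near a boundary in 240 of 240 samples, and RPL38, RPL3L, RPS2 and RPS24 in 239, whereas RPL28, RPL4 and RPLP0 were near one in 0%. In more than 70% of samples 14 of the 45 members were near a boundary, which is 31.1% against 17.8% of the other genes.

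**Figure D5:**
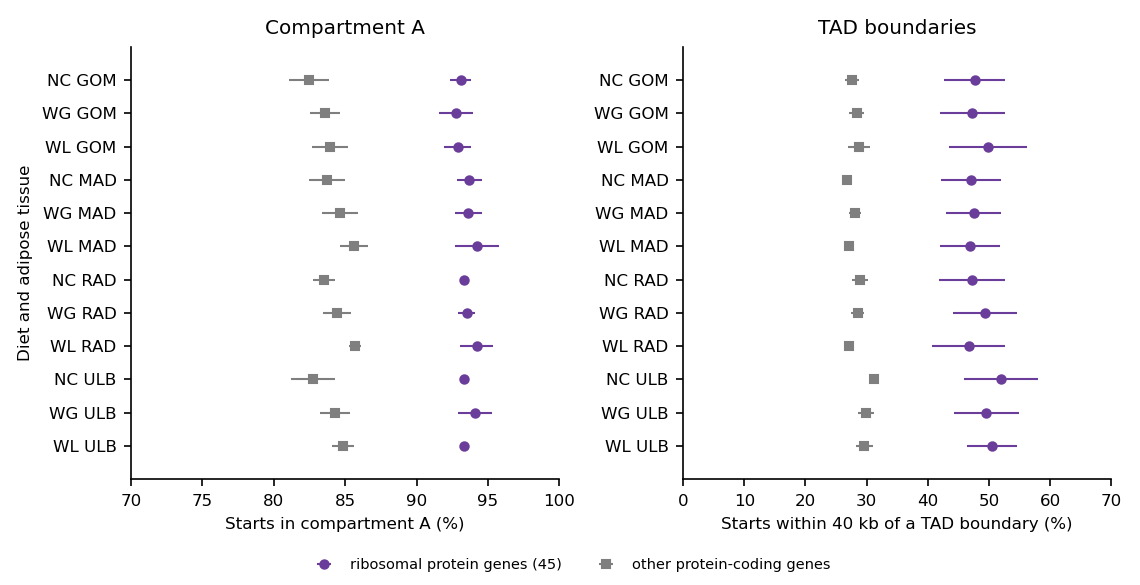
Left, percent of genes in the A compartment, and right, percent of genes within 40 kb of a TAD boundary, in each of the 12 diet and AT groups, as mean ± SD over Hi-C samples for the 45 ribosomal protein genes and the 13002 other genes. The ribosomal protein genes lie between 92.8% and 94.2% on the left and between 46.7% and 52.0% on the right, above the other genes in each group.

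Regions with the histone mark H3K27ac, which is found at active promoters and enhancers, were listed in 18 tables. The tables pool animals, so they carry no replicate error. Per the study's methods, neighbouring peaks were merged with the tool ROSE, set to exclude promoter regions. A start without a region nearby is therefore not read as lacking the mark at its promoter. Across all 18 of them, 57.8% to 97.8% of the members had a region within 10 kb of the start, against 52.6% to 87.7% of the other genes. In NC 42 to 44 of the 45 members were near a region, in WG 26 to 33 and in WL 34 to 37, and the share of other genes was also highest in NC. RPL10L was near a region in 0 of the 18 tables, and 17 members were near one in all 18. RPS7, RPS13, RPS27A and RPS29 were near a region in 4 tables and RPS20 in 6. A region classed as a super enhancer lay near RPLP2 and RPS3 in 17 tables, RPL23 in 16 and RPLP0 in 15.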

How the data were processed

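Adipose tissue of adult female pigs was measured by RNA-seq (236 libraries), in situ Hi-C (240 samples) and H3K27ac ChIP-seq (18 pooled tables). RNA came from whole tissue, whereas the study's Hi-C method took the adipocyte layer after centrifugation. Groups were taken from the labels and columns were matched by name. 9 columns that matched no sample were not used. Per the labels and the study's methods, the authors quantified reads on Sscrofa11.1 with kallisto 0.43.0 and tximport into estimated counts and TPM, and deposited the A-B index as a score per 20 kb bin after KR and BNBC normalization, TADs as domain coordinates, and enhancer tables with the H3K27ac signal (reads mapped with BWA 0.7.15 and SAMtools 1.3.1, peaks from SICER). TPM carries no depth, so precision comes from the counts, which only limit counting error. The deposited expected counts were rounded and fitted with edgeR 4.0.16 (quasi-likelihood test, TMM, R 4.3.3) over all PCGs that exceeded 0.5 TPM in 80% or more of the libraries of either compared group. Calls needed a Benjamini-Hochberg adjusted p below 0.05, 2-sided. Overlap of groups was read for the members only, and the share of all genes without overlap was not counted. The A-B index was fitted with limma 3.58.1 over all bins. The H3K27ac signal itself was not used, only region positions. These regions were peaks that the authors merged with ROSE, set to exclude promoter regions.

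Each of the 30 expression comparisons, 6 interactions and 12 A-B index comparisons was repeated with DESeq2 1.42.0, RLE or library-size scaling, no filter on low genes, limma on log2(TPM + 1), quality sets, a replicate block or without 1 NC ULB library, where these apply. Fits by mitochondria-encoded share and without lymphocyte-rich libraries were added after the data had been seen. The members, the gene lists and the markers were chosen with earlier results of these data known. Named members were the 5 highest and 5 lowest by mean TPM, the 2 largest rises and falls among those called in each diet comparison, members leading 3 or more AT comparisons, pairs of paralogs, common reference genes, and the 3 lowest by A-B index (26 genes, after leaving out genes that are not reported here). RPL29, RPS29, RPL38, RPSA, RPL14, RPS7 and members named in chromatin counts were added after their values were seen. Nothing says whether libraries of 1 AT were prepared together. The p-values of diet comparisons within 1 AT measure the spread between pigs. Those between ATs and of the interactions treat libraries of the same replicate number as independent, except where a block is named.

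Replicate numbers were checked for pairing by the correlation of same-numbered deviations from group means. Every pair exceeded 0.1 from NC GOM to NC ULB (median 0.128, 4 pairs), WG MAD to WG ULB (0.617, 30 pairs), WG RAD to WG ULB (0.556, 33 pairs) and WL MAD to WL RAD (0.385, 10 pairs). The other WG comparisons between ATs missed this by 1 or 2 pairs (medians 0.581 to 0.637), and the text gives their block too. Diet groups are different pigs, so a replicate block across diets does not pair samples of 1 pig. Promoter windows were read from the RefSeq genome and gene starts of Sscrofa11.1, and all 48 members had one. The count model was tested on simulated data.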

Additional observations from a re-analysis of the deposited data

Results flagged for a closer look

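Some libraries stood far from the others of their group of 4 to 10 samples by Dixon's test on the TPM of the named members, and such a test flags about 1 in 20 groups by chance. There were 8 such values in 150 tests. In NC GOM replicate 6, which is also rich in B and plasma cell markers, RPL23A stood at 3585 TPM and RPS15 at 441.6 TPM, both the highest of 9. RPS24 stood at 7306 TPM in NC GOM replicate 3. In WL MAD replicate 2, RPLP2 was the lowest at 1638 TPM and RPS4X the highest at 4453 TPM. In WL ULB, RPS20 stood at 1512 TPM and RPS4X at 2681 TPM in replicate 1, and RPS23 at 2238 TPM in replicate 4.

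The change from WG to WL differed between MAD and ULB by the interaction test for RPS7 (0.6548 on the log2 scale) and RPL4 (0.5211). Their adjusted p-values by edgeR's quasi-likelihood test were 0.035 and 0.039. Without the libraries rich in lymphocyte markers neither was called.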

How the results depend on the processing

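The calls in MAD and ULB rest on which libraries enter, as given beside them above, and NC GOM holds 2 high-quality libraries, so its contrasts lean on low-quality ones. With library size alone the median of all genes moved by 0.17 from WG to WL in MAD, by 0.20 from NC to WL in MAD and by -0.19 from NC GOM to ULB, and members stand relative to such shifts. DESeq2 and RLE scaling kept the direction and side of the threshold of all 34 named fold changes. Leaving out 1 NC ULB library at a time gave 3 to 17 called members in NC GOM to ULB, 0 to 1 in NC MAD to ULB (1 without replicate 5), 1 to 2 in ULB NC to WG (2 without replicate 7), 7 to 16 in ULB NC to WL (7 without replicate 9), and 0 to 5 and 0 to 2 A-B index calls in ULB NC to WG and NC to WL. Same-numbered libraries of different diets, and of the NC and WL ATs not named as paired, did not all vary together. Between diets a shared replicate number joins different pigs. The block counts of diet comparisons listed below, for expression and A-B index, are therefore not read as a check. The counts below left the range of 1.5 times around the reported count or turned direction, fold changes turned direction, and shares moved by over 1 SD. The counts are listed without the share of all genes and are not read against it. The causes of these differences were not tested.

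With DESeq2, called members numbered 11 in NC GOM to MAD, 6 in NC GOM to RAD, 13 in NC GOM to ULB, 1 in NC MAD to ULB, 1 in WG GOM to RAD, 6 in WL GOM to RAD and 8 in WL MAD to RAD. Others were 1 in WL RAD to ULB. With RLE scaling, called members numbered 1 in WG GOM to RAD. With library size alone, called members numbered 1 in GOM WG to WL, 37 in MAD WG to WL, 1 in RAD WG to WL, 1 in ULB WG to WL, 3 in NC GOM to RAD (1 higher, 2 lower), 4 in NC GOM to ULB and 2 in WG GOM to RAD. Others were 12 in WG GOM to ULB, 2 in WG MAD to ULB (0 higher, 2 lower), 15 in WL GOM to RAD and 15 in WL MAD to RAD. Interactions called 9 in WG to WL MAD against ULB. With no filter on low genes, called members numbered 1 in ULB WG to WL, 1 in WG GOM to ULB, 2 in WG MAD to ULB, 0 in WL GOM to RAD and 0 in WL MAD to RAD. With limma on log2(TPM + 1), called members numbered 15 in GOM NC to WG (11 higher, 4 lower), 10 in RAD NC to WG (6 higher, 4 lower), 0 in ULB NC to WG, 2 in RAD WG to WL, 1 in ULB WG to WL, 15 in RAD NC to WL (12 higher, 3 lower) and 3 in ULB NC to WL. Others were 1 in NC GOM to RAD, 2 in WG GOM to RAD, 2 in WG MAD to ULB, 2 in WG RAD to ULB, 6 in WL GOM to RAD and 0 in WL MAD to RAD. With high-quality libraries, called members numbered 0 in GOM NC to WG, 2 in RAD NC to WG, 0 in ULB NC to WG, 0 in ULB WG to WL, 2 in RAD NC to WL, 2 in ULB NC to WL and 0 in NC GOM to MAD. Others were 0 in NC GOM to RAD, 1 in WG GOM to RAD, 0 in WL GOM to RAD, 2 in WL GOM to ULB, 0 in WL MAD to RAD and 17 in WL MAD to ULB. Interactions called 1 in WG to WL MAD against ULB. The log2 fold change turned to 0.02 for RPS28 in RAD NC to WG and 0.14 for RPS16 in NC GOM to ULB. With base quality as a term, called members numbered 2 in GOM NC to WG, 2 in RAD NC to WG, 0 in ULB NC to WG, 0 in ULB WG to WL, 10 in RAD NC to WL, 0 in NC GOM to MAD and 4 in NC GOM to ULB. Others were 1 in WG GOM to RAD and 0 in WL MAD to RAD. The log2 fold change turned to 0.029 for RPS28 in RAD NC to WG. With the replicate number as a block, called members numbered 3 in GOM NC to WG, 0 in MAD NC to WG, 3 in RAD NC to WG, 0 in ULB NC to WG, 11 in MAD WG to WL, 5 in RAD WG to WL and 1 in ULB WG to WL. Others were 1 in ULB NC to WL, 2 in NC GOM to RAD (0 higher, 2 lower), 0 in NC GOM to ULB, 2 in NC MAD to ULB, 6 in WG GOM to MAD, 1 in WG GOM to RAD and 18 in WG GOM to ULB. Others were 4 in WG MAD to RAD, 12 in WG MAD to ULB (4 higher, 8 lower), 11 in WG RAD to ULB, 5 in WL GOM to RAD, 14 in WL GOM to ULB, 17 in WL MAD to RAD and 5 in WL RAD to ULB. Interactions, fitted here with limma, called 13 in NC to WG GOM against ULB, 1 in WG to WL GOM against ULB and 13 in WG to WL MAD against ULB. A-B index calls numbered 0 in MAD NC to WG, 0 in ULB NC to WG, 0 in RAD WG to WL and 0 in ULB NC to WL. With the mitochondria-encoded share as a term, called members numbered 25 in MAD NC to WG, 40 in RAD NC to WG, 14 in ULB NC to WG, 7 in GOM WG to WL, 4 in MAD WG to WL, 27 in RAD WG to WL and 41 in ULB WG to WL. Others were 8 in GOM NC to WL (0 higher, 8 lower), 2 in MAD NC to WL (0 higher, 2 lower), 8 in ULB NC to WL, 12 in NC GOM to MAD, 1 in NC GOM to ULB (0 higher, 1 lower), 3 in NC MAD to ULB and 1 in NC RAD to ULB. Others were 1 in WG GOM to RAD, 10 in WG GOM to ULB (6 higher, 4 lower), 11 in WG MAD to ULB (5 higher, 6 lower), 6 in WG RAD to ULB, 7 in WL GOM to RAD and 0 in WL MAD to RAD. Interactions called 1 in WG to WL GOM against ULB and 21 in WG to WL MAD against ULB. The log2 fold change turned to -0.18 for RPS15 in GOM NC to WG, -0.009 for RPS9 in GOM NC to WG, -0.22 for RPS9 in MAD NC to WL, 0.94 for RPS20 in MAD NC to WL, 0.13 for RPL23A in MAD NC to WL, -0.54 for RPS9 in RAD NC to WL and -0.28 for RPL3 in RAD NC to WL. Others were 0.78 for RPS20 in RAD NC to WL and 0.69 for RPL28 in RAD NC to WL. Below 5% mitochondria-encoded share, called members numbered 0 in MAD NC to WG, 0 in RAD NC to WG, 0 in ULB NC to WG, 1 in GOM WG to WL, 3 in MAD WG to WL, 6 in RAD WG to WL and 42 in ULB WG to WL. Others were 1 in MAD NC to WL (0 higher, 1 lower), 2 in WG GOM to ULB (2 higher, 0 lower) and 5 in WG RAD to ULB. Interactions called 10 in WG to WL MAD against ULB. The log2 fold change turned to 0.20 for RPS20 in RAD NC to WG, 0.053 for RPS28 in RAD NC to WG, 0.10 for RPS20 in ULB NC to WG, 0.71 for RPS20 in MAD NC to WL, -0.28 for RPS9 in RAD NC to WL, -0.12 for RPL3 in RAD NC to WL and 0.31 for RPS20 in RAD NC to WL. Others were 0.18 for RPL28 in RAD NC to WL. Without lymphocyte-rich libraries, called members numbered 4 in MAD NC to WG, 1 in GOM WG to WL, 3 in MAD WG to WL, 4 in MAD NC to WL (1 higher, 3 lower), 6 in WG GOM to MAD, 1 in WG GOM to RAD and 0 in WL MAD to RAD. Others were 9 in WL MAD to ULB. Interactions called 1 in WG to WL GOM against ULB and 1 in WG to WL MAD against ULB. Under both of these limits, called members numbered 0 in MAD NC to WG, 9 in GOM WG to WL, 1 in MAD WG to WL, 6 in MAD NC to WL (0 higher, 6 lower), 3 in WG GOM to RAD, 9 in WG GOM to ULB (7 higher, 2 lower) and 14 in WG MAD to ULB. Interactions called 2 in WG to WL GOM against ULB. The log2 fold change turned to -0.20 for RPS9 in MAD NC to WL and 0.69 for RPS20 in MAD NC to WL. After quantile normalization, A-B index calls numbered 0 in MAD NC to WG, 0 in RAD NC to WG, 0 in ULB NC to WG, 0 in ULB WG to WL, 2 in GOM NC to WL, 2 in MAD NC to WL and 8 in RAD NC to WL. Others were 0 in ULB NC to WL. With an index difference above 0.5, A-B index calls numbered 1 in GOM NC to WG, 14 in MAD NC to WG, 12 in RAD NC to WG, 4 in GOM WG to WL, 10 in RAD WG to WL, 6 in ULB WG to WL and 21 in MAD NC to WL. Others were 25 in RAD NC to WL. Without mitochondria-encoded genes in the denominator, the share of TPM was 11.58% in NC GOM, 10.56% in NC RAD and 10.57% in NC ULB.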
